A study of Mus musculus with 6 samples.

Results

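Acyl-CoA thioesterases were followed here through 10 Acot genes (Acot1, Acot2, Acot3, Acot4, Acot5, Acot7, Acot8, Acot9, Acot12 and Acot13), chosen by name among the 23415 genes of the deposited expression table. They were chosen with earlier results of these data known. The data are liver RNA-seq of 3 knockout mice (animals 82, 84 and 85) and 3 wildtype mice (animals 81, 83 and 90), all of the C57BL/6 strain. The knockout group lacks alkaline sphingomyelinase (Enpp7), a sphingomyelin-splitting enzyme of the intestine, and genotype was read from the letters K and W in the sample names. Age, sex, diet and time of day were not stated. The authors' table holds 1 value per group in FPKM (fragments scaled for transcript length and sequencing depth) and none per mouse, so the spread between mice cannot be shown and read depth is unknown. A gene is called changed when its q-value in the authors' deposited table is under 0.05, and ratios are knockout over wildtype with the standard error (SE) of the authors' model. In bulk tissue, fewer cells of a type and less RNA per cell cannot be told apart.

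Acyl-CoA thioesterases split activated fatty acids (acyl-CoAs) into the free acid and coenzyme A, and so set the balance between acids held for oxidation or esterification and acids released. Type I enzymes have an alpha/beta hydrolase fold, and in mice they are encoded by a gene cluster whose products go to the cytosol (Acot1), mitochondria (Acot2) or peroxisomes (Acot3, Acot4 and Acot5). Type II enzymes have the unrelated hotdog fold. Several type I genes of the liver are induced through PPAR-alpha, a nuclear receptor that responds to fatty acids and drives their oxidation.

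Because the type I genes are close copies and the reads were 50 nt long, the sequences come first. In GENCODE M21 transcripts (mouse GRCm38, the assembly of mm10), the coding sequences of Acot1 and Acot2 were 95.3% identical over 1236 aligned bases. Acot1 and Acot3 were 83.9% identical, and Acot1 and Acot4 72.8%. The longest run without a difference between Acot1 and Acot2 was 256 bases. The 60 bases below open that run. They are shown to let a reader see which copies a read from there could separate, with every base that differs from Acot1 in capitals, all on the plus strand of mm10.
Acot1, chr12:84017023-84017082: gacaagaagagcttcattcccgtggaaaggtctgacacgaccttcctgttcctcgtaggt
Acot2, chr12:83992745-83992804: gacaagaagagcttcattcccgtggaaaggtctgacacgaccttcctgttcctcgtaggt
Acot3, chr12:84058670-84058729: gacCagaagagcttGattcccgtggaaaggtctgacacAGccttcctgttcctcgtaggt
Acot4, chr12:84043440-84043499: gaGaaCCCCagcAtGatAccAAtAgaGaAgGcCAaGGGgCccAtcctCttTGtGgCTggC
Acot5, chr12:84075553-84075612: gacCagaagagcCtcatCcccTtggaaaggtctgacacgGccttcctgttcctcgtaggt

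In this window Acot2 had 0 differences from Acot1, Acot3 had 4, Acot5 had 5 and Acot4 had 28. Each transcript was then cut into all its words of 50 bases, and words also held, on either strand, by a transcript of another gene were counted. Of the words of Acot1, 33.2% occurred in another gene, 23.9% in Acot2, 9.14% in Acot5 and 7.74% in Acot3. For Acot2 the share was 27.7%, nearly all of it with Acot1 (24.5%). Acot3 shared 21.7% of its words and Acot4 14.4%, but at most 6.06% (Acot3 with Acot5) and 2.53% (Acot4 with Acot6) with any single Acot gene. The largest shares lay in Gm49366 and 4732463B04Rik, annotated genes that overlap them and are not analysed here. Acot7 and Acot13 shared 0% of their words. The handling of reads with several matches was not stated, so the single values of Acot1 and Acot2 are uncertain, and their sum is given beside them. The counts are of exact matches, and an aligner that allows mismatches meets more ambiguity. They are also over GENCODE M21 transcripts, and the authors' gene models can differ. Their Acot4 locus ends at 84044723, against 84048601 in GENCODE M21. Word shares over their shorter Acot4 were not computed and could be larger.

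**Figure D1:**
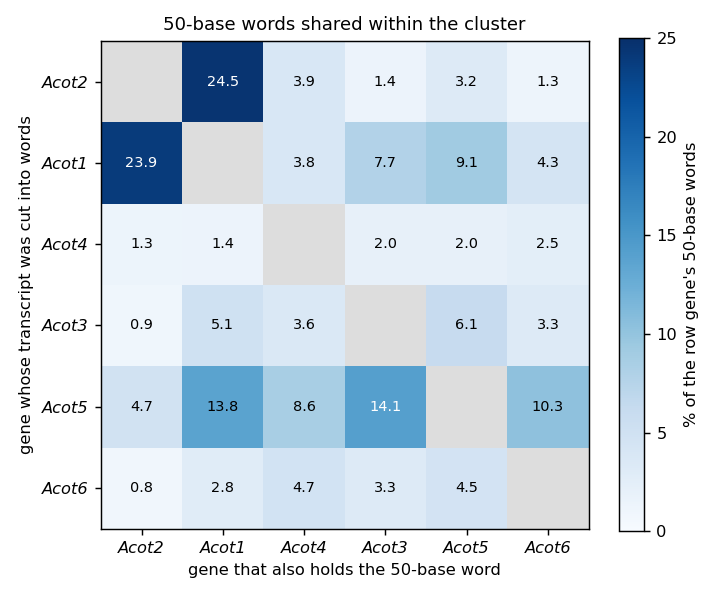
Share of 50-base transcript words that 2 cluster genes have in common, as a percentage of the words of the gene in each row; genes are in chromosomal order and the grey diagonal is not plotted. Acot1 and Acot2 share 23.9% and 24.5% of their words, while Acot4 shares at most 2.53% with any other gene of the cluster. Transcripts are those of GENCODE M21, not the authors' gene models.

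Of the 5 type I genes, 2 fell in the knockout livers, 2 did not pass and 1 was not tested. Acot3, a peroxisomal thioesterase for long-chain acyl-CoAs, was at 3.84 FPKM in the wildtype group and 0.657 FPKM in the knockout group. It fell 5.84-fold (log2 ratio -2.55 ± 0.42 SE and, in the authors' deposited table, q = 4.94e-07), with a 95% interval of 0.0968 to 0.302 times the wildtype value. At so low a level the size depends on the scale: with 1 FPKM added to both values the log2 ratio was -1.55. Acot1, the cytosolic long-chain enzyme, was at 9.03 FPKM in wildtype and 2.77 FPKM in knockout livers. It fell 3.26-fold (log2 ratio -1.70 ± 0.33 SE and, in the authors' deposited table, q = 7.02e-05), with an interval of 0.196 to 0.481. Both genes are in the authors' short list of 95 differential genes, the only 2 members that are. That list holds the same comparison of the same mice, so it is no separate support.

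The other 2 type I genes with a test lay on the same side and were not called. Acot4, a peroxisomal enzyme that also splits succinyl-CoA, was at 9.01 FPKM in wildtype and 5.23 FPKM in knockout livers (log2 ratio -0.79 ± 0.27 and, in the authors' deposited table, q = 0.201). Under equal-sum scaling, in which both groups are brought to 1 summed FPKM, it passed, at q = 0.0241 and a log2 ratio of -0.98. That scaling also moved the median log2 ratio of all tested genes from -0.0012 to -0.196. Acot2, the mitochondrial long-chain enzyme, was at 1.84 FPKM and 0.969 FPKM (log2 ratio -0.92 ± 0.42 and, in the authors' deposited table, q = 0.731). At its error only a difference of at least 2.75-fold could have been called. Acot1 and Acot2 summed stood at 10.9 FPKM in wildtype and 3.74 FPKM in knockout livers, a log2 ratio of -1.54. The sum depends less on how reads shared by these 2 genes were split between them. It does not settle reads that were discarded or shared with other copies, such as Acot5 and Acot3. Acot5, a peroxisomal enzyme for medium-chain acyl-CoAs, was listed at 0 in both groups and was not tested.

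Type II transcripts, which hold most of the family's expression in liver, contained no call. Acot13, a mitochondria-associated enzyme that binds phosphatidylcholine transfer protein, was the most abundant member at 65.2 FPKM in wildtype and 62.1 FPKM in knockout livers (log2 ratio -0.07 ± 0.23). Its interval of 0.693 to 1.31 times wildtype bounds the difference that these data allow. Acot12, the cytosolic acetyl-CoA hydrolase, was at 35.3 and 29.7 FPKM (log2 ratio -0.25 ± 0.23, interval 0.613 to 1.15). Acot8, a peroxisomal enzyme of broad chain length, was at 20.1 and 20.3 FPKM (log2 ratio 0.01 ± 0.28, interval 0.690 to 1.48). Its sign turned under equal-sum scaling, to -0.18.

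Acot7, a cytosolic long-chain enzyme best known from brain, was at 23.1 FPKM in wildtype and 16.1 FPKM in knockout livers (log2 ratio -0.52 ± 0.24 and, in the authors' deposited table, q = 0.727). Its unadjusted p was 0.0282 in the authors' deposited table, and it did not pass. Acot9, a mitochondrial enzyme, was the 1 tested member besides Acot8 with a ratio above 0, at 1.65 FPKM in wildtype and 2.34 FPKM in knockout livers (log2 ratio 0.50 ± 0.43, interval 0.789 to 2.53). Part of the reads of this gene could also come from Acot10, a close relative that, with Gm49685, holds 20.2% of its words, and which was listed at 0 FPKM in wildtype and 0.0149 FPKM in knockout livers.

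**Figure D2:**
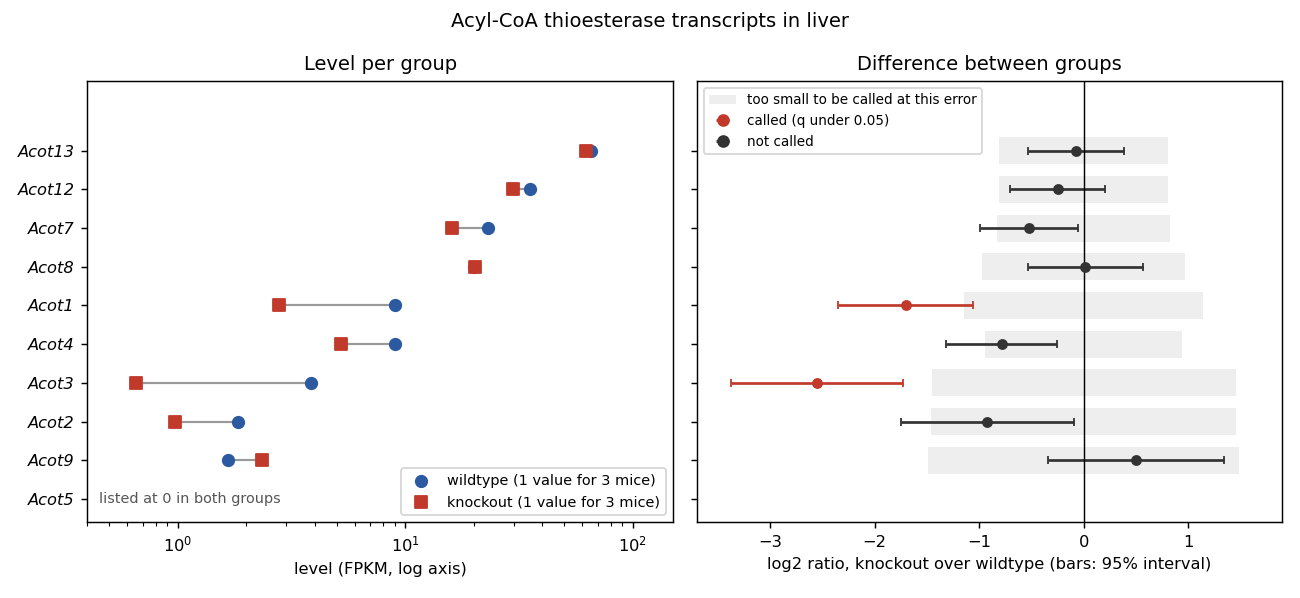
Left, the authors' FPKM of each thioesterase gene in the wildtype (circles) and knockout (squares) groups on a log axis, 1 value per group of 3 mice; right, the log2 ratio of knockout over wildtype with its 95% interval from the authors' model, over grey bars that span ratios too small to be called at that gene's error. Acot3 and Acot1 lie beyond their grey bars at -2.55 and -1.70, and the other 7 tested genes lie within theirs.

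Over the 10 members, 9 were tested, 2 fell, 0 rose and 7 did not pass. The called share was 22.2% of the tested members, where 0.504% of all 11515 tested genes were called lower, 0.573% higher and 1.08% in either direction. Because the members were chosen with earlier results of these data known, the shares and medians given here describe them and are no test. Under equal-sum scaling 3 members were called lower, and the calls over all tested genes moved from 58 lower and 66 higher to 140 lower and 49 higher. Ratios were below 0 in 7 of the 9, against 50.1% of all tested genes, and the median log2 ratio was -0.52 against 0.00 (-0.0012) for all tested genes. At an unadjusted p under 0.05 there were 5 members in the authors' deposited table (Acot1, Acot2, Acot3, Acot4 and Acot7), all lower, where 2.47% of all tested genes were lower, 2.82% higher and 5.29% either at that threshold. The median was -1.31 over the 4 tested type I genes and -0.07 over the 5 type II genes; the difference between these medians was not tested. The smallest difference that could be called ranged from 1.75-fold for Acot12 to 2.80-fold for Acot9.

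The order of levels in wildtype livers, from the highest, was Acot13, Acot12, Acot7, Acot8, Acot1, Acot4, Acot3, Acot2 and Acot9. Acot5, listed at 0, was given no place. FPKM is scaled for length, so levels can be set side by side between genes. Acot1 and Acot4 stood at nearly the same level (9.03 and 9.01 FPKM), and no spread over mice was at hand to order such neighbours. In knockout livers Acot4 came before Acot1, Acot8 came before Acot7, Acot9 before Acot2, and Acot3 came last among the 9 listed above 0. The wildtype level of Acot3 was above that of 37.3% of tested genes, and its knockout level above that of 3.01%. The level of Acot1 went from above 58.4% to above 29.6% of tested genes. These shares leave out 11734 listed genes marked as not tested, so they depend on the authors' filter for testing.

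Summed over the family, thioesterase transcripts stood at 169 FPKM in wildtype and 140 FPKM in knockout livers, a ratio of 0.829. Type I genes made up 23.7 FPKM of it in wildtype and 9.63 FPKM in knockout livers, a ratio of 0.406. Type II genes held the rest, at 145 and 131 FPKM, a ratio of 0.898. Grouped by where the enzymes act, mitochondrial members (Acot2, Acot9 and Acot13) summed to 68.7 FPKM in wildtype and 65.4 FPKM in knockout livers. Acot13 alone held 65.2 and 62.1 FPKM of these, so this sum says little of Acot2 and Acot9. Cytosolic members (Acot1, Acot7 and Acot12) summed to 67.5 and 48.6 FPKM. Peroxisomal members (Acot3, Acot4, Acot5 and Acot8) summed to 33.0 and 26.2 FPKM. Acot8 alone made up most of the peroxisomal sum in both groups, at 20.1 FPKM in wildtype and 20.3 FPKM in knockout livers. Acot3 went from 3.84 to 0.657 FPKM and Acot4 from 9.01 to 5.23 FPKM. These sums carry no error of their own.

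**Figure D3:**
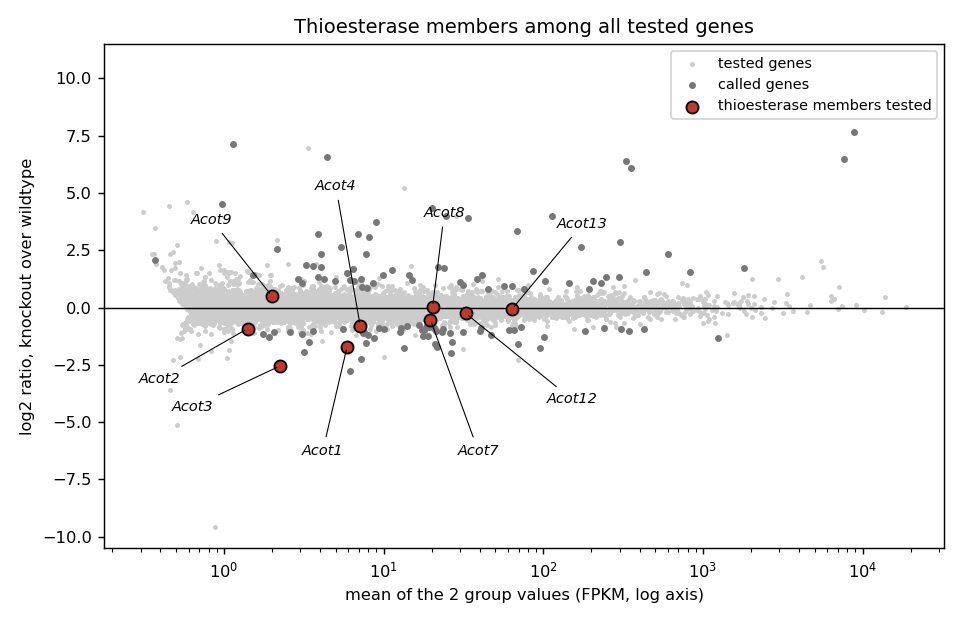
Log2 ratio of knockout over wildtype against the mean of the 2 group values (FPKM, log axis) for all tested genes with a finite ratio (light grey), called genes (dark grey) and the 9 tested thioesterase members (red, named). Acot3 and Acot1 lie below the band of most genes at their level, and Acot13, Acot12 and Acot8 lie within it.

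The type I genes lie side by side on chromosome 12. In GENCODE M21 (GRCm38), in order along the plus strand, Acot2 spans 83987861 to 83993873, Acot1 84009490 to 84018371, Acot4 84038379 to 84048601, Acot3 84052144 to 84060402 and Acot5 84069325 to 84076020, with 3 coding exons in each transcript used. Acot6, which is no member here, follows them and was at 0.287 FPKM in wildtype and 0.302 FPKM in knockout livers, too low for the authors' test. The called genes Acot1 and Acot3 are not adjacent: Acot4, which was not called, lies between them.

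Genes around the cluster showed no call. Of 7 other listed genes within 200 kb of it, 4 were tested and 0 were called or had an unadjusted p under 0.05 in the authors' deposited table. Their log2 ratios ran from -0.32 to -0.04, with SEs of 0.23 to 0.36. Ptgr2, prostaglandin reductase 2, was at 26.9 FPKM in wildtype and 21.6 FPKM in knockout livers. Elmsan1 was at 1.69 and 1.56 FPKM, Numb, a cell fate regulator of Notch signalling, at 8.37 and 8.15 FPKM, and 2410016O06Rik at 3.70 and 3.50 FPKM. Papln, Dnalc1 and Pnma1 stood between 0.0413 and 0.376 FPKM in both groups and were not tested.

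**Figure D4:**
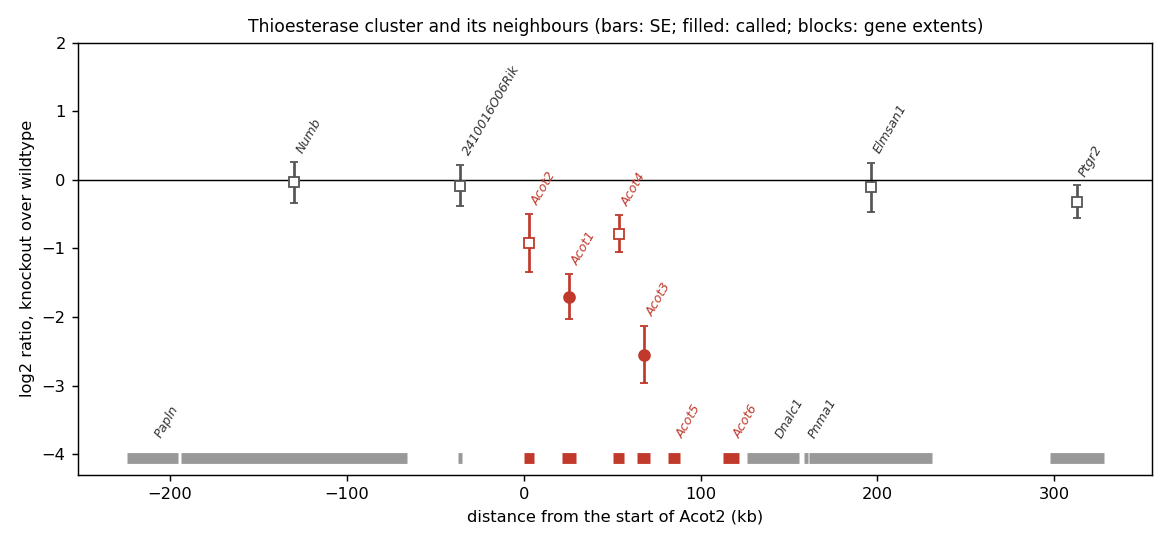
Log2 ratio of knockout over wildtype (points, bars are the SE of the authors' model, filled where called) against distance from the start of Acot2 in kb, for the thioesterase cluster (red) and its neighbours (grey); blocks at the bottom show the extent of each gene, and names set above a block mark genes that were not tested. The 4 tested cluster genes lie between -2.55 and -0.79, and the 4 tested neighbours between -0.32 and -0.04.

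The other members are spread over the genome. In GENCODE M21, Acot7 lies on chromosome 4 at 152178134 to 152271855, Acot8 on chromosome 2 at 164792765 to 164804882, Acot9 on chromosome X at 155262443 to 155297654, Acot12 on chromosome 13 at 91741512 to 91786148 and Acot13 on chromosome 13 at 24817948 to 24831540. In the authors' deposited table the Acot8 locus starts at 164786021 and the Acot12 locus at 91461097, so their gene models can differ from these spans. Some members share exon sequence with a gene on the other strand, and no label tells if strand was kept. Acot8 shares 246 exonic bases with Snx21, a sorting nexin, at 4.50 FPKM in wildtype and 6.29 FPKM in knockout livers. Acot12 shares 149 with 4833422C13Rik, at 4.51 and 4.14 FPKM. Acot3 and Acot4 share 312 and 615 with 4732463B04Rik. Reads from these stretches cannot be told apart by gene without strand. Acot3 and Acot4 also share 396 and 33 exonic bases with Gm49366 on the same strand, where strand does not separate reads.

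The 250 bases before the RefSeq start site (GRCm38.p6) are shown for Acot1 and Acot3, the called genes, and for Acot4, which lies between them and was not called. Capitals mark matches, on either strand, to the common promoter element CCAAT, to the core promoter word TATAAA or to AGGTCA (the half-site of nuclear receptors such as PPAR-alpha). Matches do not overlap other than the last pair of TATAAA matches in Acot4. The DR1 site, a pair of half-sites in 1 direction spaced by 1 base, was searched as well, in an exact form and in a loose form with any base at the same position of both half-sites.
Acot1, chr12:84009252-84009501, plus strand: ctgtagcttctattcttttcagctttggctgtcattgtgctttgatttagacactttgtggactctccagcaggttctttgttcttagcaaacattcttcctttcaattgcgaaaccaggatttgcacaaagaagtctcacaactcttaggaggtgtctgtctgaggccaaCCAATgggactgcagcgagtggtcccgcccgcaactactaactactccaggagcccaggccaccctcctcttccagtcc
Acot3, chr12:84051894-84052143, plus strand: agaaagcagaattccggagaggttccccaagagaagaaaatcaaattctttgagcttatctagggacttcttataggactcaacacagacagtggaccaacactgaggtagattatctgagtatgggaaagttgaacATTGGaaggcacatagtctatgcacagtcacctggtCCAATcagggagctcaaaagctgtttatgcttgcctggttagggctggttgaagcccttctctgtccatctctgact
Acot4, chr12:84038129-84038378, plus strand: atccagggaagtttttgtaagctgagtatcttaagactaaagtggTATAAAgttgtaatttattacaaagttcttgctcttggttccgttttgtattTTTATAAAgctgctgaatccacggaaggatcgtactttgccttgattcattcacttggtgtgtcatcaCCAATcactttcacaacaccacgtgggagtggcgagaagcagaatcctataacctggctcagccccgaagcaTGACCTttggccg

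A CCAAT match on the plus strand began at -79 in Acot1, -77 in Acot3 and -85 in Acot4, counted from the start site. CCAAT was found in 34.5% of 27025 promoters of the same length. Acot4 held 3 TATAAA matches, a word found in 13.0% of promoters, and Acot1 and Acot3 held none. Acot4 held AGGTCA on the minus strand at -13, a word found in 13.8% of promoters, and Acot1 and Acot3 held none. Neither form of the DR1 site was found in these 3 windows; the exact form was found in 0.037% and the loose form in 0.333% of promoters. These are matches of letters in a short window and say nothing of binding. Of the 10 members, 9 had a promoter in the RefSeq table used.

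The wider acyl-CoA system was read through 8 gene lists. The rule of up to 3 called genes per list, or otherwise the gene with the smallest p, set which are named. Among 29 tested PPAR-alpha targets outside the family there were 3 calls, all lower, and 26 genes did not pass. Under equal-sum scaling 4 were called lower. At an unadjusted p under 0.05 in the authors' deposited table, 8 targets were lower and 0 higher. Of all tested genes, 0.504% were called lower, and 2.47% were lower and 2.82% higher at that unadjusted threshold. The median log2 ratio of the targets was -0.21, with 24 genes below 0, against 50.1% of all tested genes. This list was chosen with earlier results of these data known. Cyp4a14, a fatty acid omega-hydroxylase, fell from 11.9 to 2.48 FPKM (log2 ratio -2.27 ± 0.31 and, in the authors' deposited table, q = 3.06e-10). Cyp4a10, another, fell from 20.8 to 6.04 FPKM (-1.78 ± 0.27). Named after their values were seen, Cyp4a32 (0.41 ± 0.31) and Cyp4a31 (-0.21 ± 0.64) of the same family were not called. Read sharing among the Cyp4a genes was not examined. Acaa1b, a peroxisomal thiolase, fell from 562 to 292 FPKM (-0.94 ± 0.26 and, in the authors' deposited table, q = 0.0355). Chosen after its values were seen, the classical target Pdk4, a kinase that shuts off pyruvate dehydrogenase, was at 0.848 FPKM in wildtype and 0.558 FPKM in knockout livers. Its log2 ratio was -0.60 ± 0.45 and it was not called. At that error only a difference of at least 2.97-fold could have been called. The receptor and its partners held 0 calls among 12 tested genes, 0 at an unadjusted p under 0.05, and a median of -0.06. Ppara itself, also chosen afterwards, was at 31.0 FPKM in wildtype and 26.5 FPKM in knockout livers (-0.22 ± 0.26). Rxrg, a retinoid X receptor, had the smallest p of that list, at 2.59 and 3.56 FPKM.

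In the peroxisomal oxidation list 1 of 20 tested genes fell (2 under equal-sum scaling), Acaa1b again, 0 rose, 19 did not pass and the median was -0.16. At an unadjusted p under 0.05 in the authors' deposited table, 3 genes were lower (Acaa1b, Ehhadh and Pex11a) and 0 higher. Acaa1b, Ehhadh and Pex11a are also on the target list. Pex11a, a peroxisome division factor, was at 45.8 FPKM in wildtype and 28.2 FPKM in knockout livers (-0.70 ± 0.24). Ehhadh, the bifunctional enzyme of peroxisomal oxidation, was at 77.8 and 52.7 FPKM (-0.56 ± 0.23). Both were named after their values were seen, and neither was called.

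Genes that make acyl-CoAs, the reverse of the thioesterase reaction, held no call on the values as deposited. Of 16 tested acyl-CoA synthetases 0 passed (1 under equal-sum scaling), 1 had an unadjusted p under 0.05, and the median was -0.14. Aacs, acetoacetyl-CoA synthetase, was at 54.4 FPKM in wildtype and 33.4 FPKM in knockout livers (-0.70 ± 0.24 and, in the authors' deposited table, q = 0.189). Of 9 tested thioesterases outside the members 0 passed and 1 had an unadjusted p under 0.05, with a median of -0.01. Lypla1, which takes acyl groups off proteins, was at 44.3 and 32.3 FPKM (-0.45 ± 0.22). Baat, a relative of the type I enzymes that conjugates bile acids to amino acids, was named after its values were seen and stood at 108 and 107 FPKM (-0.01 ± 0.23).

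Acyl-CoA carriers and coenzyme A genes held no call either. Of 6 tested carnitine shuttle genes 0 passed and the median was -0.21. Crot, which moves peroxisomal medium-chain acyl groups onto carnitine, was at 105 FPKM in wildtype and 171 FPKM in knockout livers (0.70 ± 0.24 and, in the authors' deposited table, q = 0.201). It was the 1 gene of that list with an unadjusted p under 0.05, and the other 5 ratios were below 0. Of 17 tested genes of coenzyme A synthesis and breakdown 0 passed and 1 had an unadjusted p under 0.05, with a median of -0.11. This was Enpp3, which splits nucleotide pyrophosphates, at 13.5 and 22.4 FPKM (0.73 ± 0.23 and, in the authors' deposited table, q = 0.102). Of 6 tested acyl-CoA binding proteins 0 passed and 0 had an unadjusted p under 0.05. Their median of 0.10 turned to -0.10 under equal-sum scaling. Acbd3, a Golgi protein, was at 5.53 and 4.21 FPKM.

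**Figure D5:**
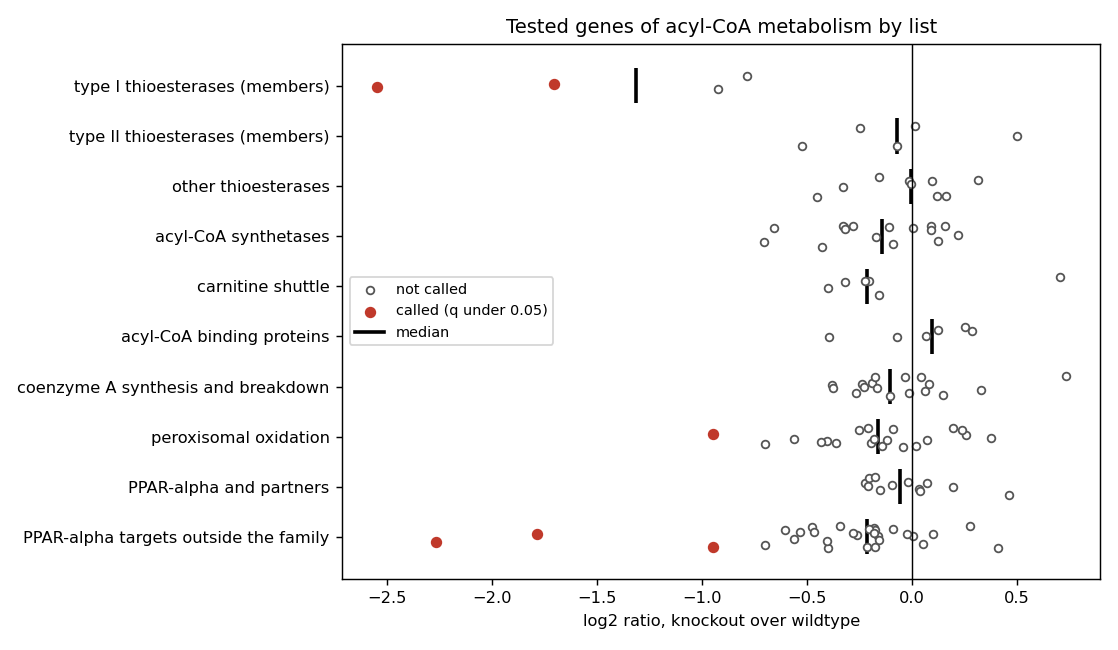
Log2 ratio of knockout over wildtype for each tested gene (points, filled red where called) of the type I and type II thioesterases and of 8 lists of acyl-CoA metabolism, with the median of each list as a black bar; vertical scatter within a list has no meaning and some genes are on more than 1 list. Medians lie at -1.31 for type I members and -0.07 for type II members, and between -0.21 and 0.10 for the other lists.

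By a fixed rule, the 3 called genes outside the family with the nearest log2 ratio were found for each called member, over the 2 group values alone. For Acot1 they were Rgs16, a regulator of G protein signalling, Cyp4a10, and G0s2, an inhibitor of the lipase ATGL, whose ratios of -1.73, -1.78 and -1.78 lay within 0.0814 of it. For Acot3 they were Cml5 at -2.79, Cyp4a14 at -2.27 and Mfsd2a, a lysophosphatidylcholine transporter, at -1.97. Likeness over a single ratio separates few genes.

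The tissue label says liver and the design text speaks of intestine. The 13 hepatocyte markers summed to 57524 FPKM in wildtype and 68675 FPKM in knockout livers, and the 13 intestinal epithelium markers to 85.7 and 99.1 FPKM, led by Fabp2 at 54.7 and 42.9 FPKM. Of 12 tested hepatocyte markers 0 were called and 1 had an unadjusted p under 0.05, with a median of -0.02; Alb was listed at 0 in both groups. Neutrophil and monocyte markers summed to 6.28 FPKM in wildtype and 109 FPKM in knockout livers, with 4 of 9 tested called higher, and macrophage markers to 333 and 526 FPKM, with 2 of 11 called higher and 0 under equal-sum scaling. The summed levels were 100 and 95.8 FPKM for 7 endothelial, 67.9 and 59.5 FPKM for 7 stellate cell, and 2.89 and 3.52 FPKM for 7 adipocyte markers, with 0 called; 1 stellate cell marker was called lower under equal-sum scaling. Neuron and striated muscle markers summed to at most 3.36 FPKM in either group, and all 5 kidney markers were listed at 0. The part of these differences in the values of the thioesterase genes was not tested. Enpp7 was at 0.0541 FPKM in wildtype and 0.141 FPKM in knockout livers, too low for the authors' test, so it does not check the genotype labels. All FPKM values summed to 564749 in the wildtype and 646306 in the knockout group, and scaling both to the same sum moved every log2 ratio by -0.19. These sums hold listed values only, in which the hepatocyte marker Alb counts as 0. Equal listed sums therefore need not mean that the groups were brought to equal amounts of RNA.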

How the data were processed

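Liver RNA of 6 mice was sequenced as single-end reads of 50 nt from Illumina TruSeq libraries, per the labels' protocols and the design text. Bowtie2 and the build mm10 appear with no stated role, per the submitters' processing notes; which program wrote the tables is not stated. The authors deposited 1 value per group, taken as FPKM from the Cuffdiff layout of the table, since the file headers name no unit. Their log2 ratio, wildtype over knockout per the file headers, was turned round. The deposited score per gene behaves as a normal z, and the SE is the log2 ratio divided by it. The authors' deposited p-values were adjusted by them over 11515 tested genes, and 59 of these had no finite ratio. The planned limma fit needs values per mouse, so the authors' q under 0.05 was used, as fixed for that case. Intervals are 95%, from the SE.

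The members and lists were chosen with earlier results of these data known. Named were all 10 members, up to 3 called genes per list or the smallest p, the cluster's neighbours and the 3 nearest called genes; others are said to be chosen afterwards. Coding sequences were aligned with MAFFT 7.526, and 50-base words compared over all GENCODE M21 transcripts, 1 coding transcript per member with the longest coding part. Older symbols were matched through the RefSeq table of GRCm38.p6. Calculations used Python 3.11.15, numpy, pandas and scipy 1.17.1 and were tested on simulated data. Columns belonging to other series numbered 0. Whether each library came from a separate animal rests on the numbers in the sample names.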

Additional observations from a re-analysis of the deposited data

How the results depend on the processing

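The call of 2 members, both lower, was the same with ratios centred on the median of tested genes, with q over the 10436 genes of at least 1 FPKM on average, after quantile normalization and at q under 0.10. It was 3 under equal-sum scaling, where Acot4 passed (q = 0.0241), and 5 at an unadjusted p under 0.05. Of 27 values of the 9 tested members under alternatives with a q, 25 kept direction and call, 1 became a call (Acot4) and 1 changed sign, Acot8 at -0.18 under equal-sum scaling; that scaling also turned the median of acyl-CoA binding proteins from 0.10 to -0.10 and moved the calls from 0 to 1 for acyl-CoA synthetases and from 1 to 2 for peroxisomal oxidation. Calls among PPAR-alpha targets outside the family moved from 3 to 4 under it. The cause of these changes is the shift of -0.19 that the scaling adds to every ratio. The 18 values with a pseudocount, which have no test, kept their direction. With a pseudocount of 1 the log2 ratio of Acot3 was -1.55 and that of Acot1 -1.41.

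The median log2 ratio of the members, -0.52, was -1.31 over type I and -0.0702 over type II members, -0.25 without Acot1 and Acot3 and -0.72 under equal-sum scaling, and the summed ratio of 0.829 was 0.406 over type I members, 0.898 over type II members, 0.751 without Acot13 and 0.724 under equal-sum scaling. Under equal-sum scaling the median over all tested genes was -0.196. The type splits of the members' median, its value without Acot1 and Acot3, and the type II sum were chosen after seeing the data. No paired analysis was possible because the deposited values are 1 per group, and for the same reason no replicate could be left out. Depth is unknown, so no counting interval could be given.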
